A study of Homo sapiens with 4 samples.

Results

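Keratins are the intermediate filament proteins of epithelial cells. A filament is built from pairs of a type I (acidic) and a type II (basic) keratin, so that each cell type is marked by the pairs it makes: KRT8 with KRT18, often joined by KRT7 and KRT19, in luminal and other simple epithelia, and KRT5 with KRT14 or KRT15 in basal layers. KRT6A and KRT17 are induced in stressed, wounded or rapidly dividing epithelium, and KRT80 is a type II keratin found in many epithelia. In prostate tissue the luminal and basal layers are told apart by these proteins, and carcinomas usually keep the luminal set.

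The 10 keratin genes described here were KRT7, KRT8, KRT18 and KRT19 (luminal), KRT5, KRT14, KRT15, KRT6A and KRT17 (basal or stress) and KRT80 (placed in neither class). They were chosen by name, from 19102 named genes, and had 12 probes of 34127. The deposited array files carry no gene symbols, so that each probe was named through its RefSeq accession. KRT8 and KRT18 had 2 probes each and every other member had 1, with 1 spot per probe on each array, none of them flagged or saturated. Of the 12 probes, 9 were tested. The remaining 3, for KRT5, KRT14 and KRT17, were not well above background on any array, so that 7 of the 10 genes were tested.

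RNA had been taken from PC3, an established cell line derived from a bone metastasis of a prostate carcinoma, after lentiviral infection for 48 h with a control shRNA (against GFP, per the methods) or an shRNA against ALKBH3, an alkylation repair demethylase, and then puromycin selection for 48 h or 96 h. Each of the 4 samples was hybridised to 1 single-colour Agilent array: control at 48 h, ALKBH3 at 48 h, control at 96 h and ALKBH3 at 96 h. All 4 groups thus carry a virus and passed selection, and there was no uninfected sample. The time points are the only repeats (n = 2 arrays per shRNA), they lie on separate slides, and time and slide cannot be told apart. The labels name neither which ALKBH3 shRNA was used nor separate cultures, so that a p-value measures only the spread between these arrays.

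Signal is given as log2 intensity relative to the 75th percentile of the same array, which lay between 2150 and 2394 intensity units, and between 67.0% and 70.9% of probes were well above background on an array. Levels of different probes cannot be compared, and each comparison below is of a probe, or of a fixed sum of probes, between arrays. The targeted gene followed its labels. One ALKBH3 probe read -0.63 and -0.61 with control shRNA and -2.67 and -2.68 with ALKBH3 shRNA, and the other read -0.74 and -0.89 against -2.48 and -2.41. The luminal marker KLK3 and the basal markers TP63 and NGFR were not well above background on any array, whereas HOXB13, a prostate lineage factor, was on all 4.

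Among the luminal keratins KRT7 stood apart from the other genes. KRT7, a type II keratin of simple ducts and glands, had a log2 signal of 4.69 on the control array and 5.52 on the ALKBH3 array at 48 h, and of 4.79 and 5.72 at 96 h. Both ALKBH3 arrays lay above both control arrays, and the difference was similar at each time point. The log2 difference was 0.83 at 48 h and 0.93 at 96 h, and overall 0.88 ± 0.14 (SE), or 1.84-fold, below the 2-fold cutoff. The adjusted p was 0.360 in limma without a covariate and 0.0340 with the time point as a block, a fit that compares the arrays within each time point and has 1 residual degree of freedom per probe besides those limma borrows across probes.

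KRT8, the main type II keratin of luminal cells, gave no difference beyond the spread between arrays. Its first probe (A_23_P14072) read 1.72 (control) and 1.82 (ALKBH3) at 48 h, then 1.59 and 1.55 at 96 h. Its second probe (A_24_P67395) read -3.44 and -3.30 at 48 h, and -3.80 and -3.61 at 96 h. The groups overlapped on both probes. The log2 differences were 0.03 ± 0.15 and 0.17 ± 0.20 (SE), with adjusted p of 0.990 and 0.934 in limma.

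KRT18, the type I partner of KRT8, also differed by less than its SE on both probes. The first (A_24_P42136) read 3.36 and 3.30 at 48 h and 3.45 and 3.35 at 96 h, control before ALKBH3 shRNA. The second (A_32_P151544) read 5.30 and 5.27, then 5.44 and 5.32. On the first probe both ALKBH3 arrays lay narrowly below both control arrays, and on the second the groups overlapped. Their log2 differences were -0.08 ± 0.12 and -0.07 ± 0.12 (SE), with adjusted p of 0.958 and 0.967 in limma. KRT19, a small type I keratin lacking most of the tail domain, read 7.03 (control) and 6.76 (ALKBH3) at 48 h, then 6.83 and 6.75 at 96 h. Both ALKBH3 arrays lay below both control arrays, though by only 0.27 and 0.09, and the overall log2 difference was -0.18 ± 0.13 (SE; adjusted p 0.854, limma).

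KRT8, KRT18 and KRT19 have many processed pseudogenes, 52, 68 and 5 in the RefSeq table, and a probe to any of them may take up signal from such copies, which was not tested. The KRT8 and KRT18 genes lie side by side on chromosome 12. Within the arrays, the log2 ratio of KRT7 to KRT18 was 0.96 higher with ALKBH3 shRNA by one KRT18 probe and 0.95 by the other, and that of KRT7 to KRT19 was 1.06 higher. The ratio of KRT8 to KRT18, by contrast, moved by 0.10 to 0.25 depending on the probes taken.

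**Figure D1:**
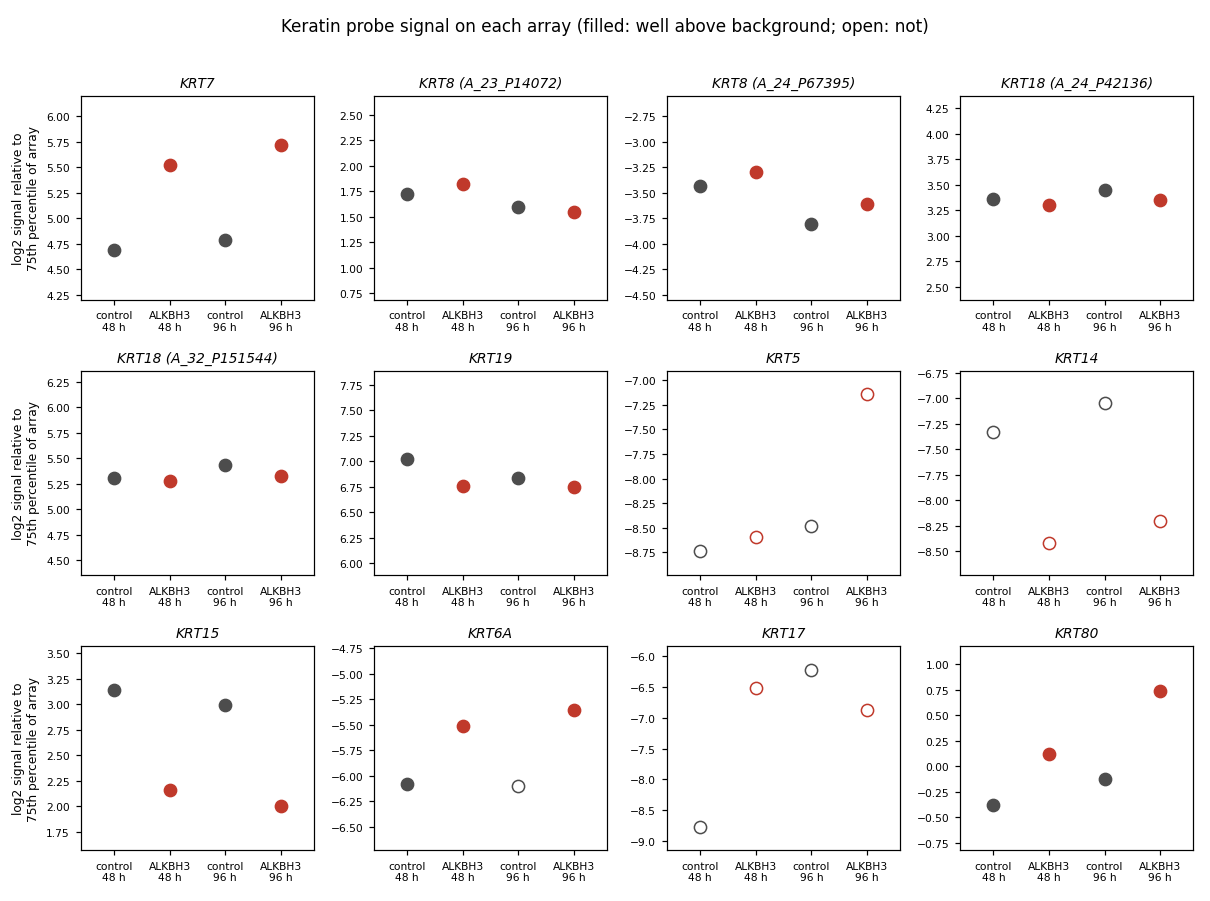
Log2 signal of the 12 keratin probes on each of the 4 arrays, relative to the 75th percentile of the array, one panel per probe with its own y axis (grey, control shRNA; red, ALKBH3 shRNA; filled, well above background; open, not). KRT7, KRT80 and KRT6A are higher and KRT15 lower on both ALKBH3 arrays, KRT8, KRT18 and KRT19 are nearly level, and KRT5, KRT14 and KRT17 have open symbols throughout.

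The basal or stress keratins had values in both directions. KRT15, a type I keratin of basal layers and of hair follicle stem cells, had a log2 signal of 3.14 on the control array and 2.16 on the ALKBH3 array at 48 h, and of 3.0 and 2.01 at 96 h. Both ALKBH3 arrays lay below both control arrays by nearly the same amount. The overall log2 difference was -0.98 ± 0.13 (SE), 1.97-fold lower, just short of the cutoff. The adjusted p was 0.360 in limma without a covariate and 0.0301 with the time point as a block. With each array centred on its median the difference was -1.01, and KRT15 then passed the 2-fold cutoff. It also passed without the 48 h ALKBH3 array, at -1.06, and without the 96 h control array, at -1.05. KRT15 and KRT19 are neighbours on chromosome 17, with no protein-coding gene between them in the RefSeq table, and the log2 ratio of KRT15 to KRT19 was 0.71 lower at 48 h and 0.90 lower at 96 h with ALKBH3 shRNA.

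KRT6A, a type II keratin induced by wounding, was dim, and it entered the test only through the ALKBH3 arrays, since 1 of the 2 control arrays measured it above background. Its log2 signal was -6.08 (control) and -5.51 (ALKBH3) at 48 h, then -6.10 and -5.35 at 96 h, the 96 h control array being the one not well above background. Both ALKBH3 arrays lay above both control arrays. The measured difference was 0.66 ± 0.13 (SE), with an adjusted p of 0.389 in limma and 0.0461 with the time point as a block. The error the scanner software gave for this spot was 0.23 to 0.37 on the log2 scale, wider than for the other tested members. With normexp background correction the difference was 0.19 and its unadjusted limma p 0.204. KRT6A, KRT6B and KRT6C are near-identical genes whose signals the probes may not separate. The KRT6B probe differed by -0.15 and KRT6C was not well above background on any array.

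KRT5, KRT14 and KRT17 gave no usable level. KRT5, the basal type II keratin, read between -8.74 and -7.15. KRT14, its type I partner, read -7.33 and -7.04 with control shRNA and -8.41 and -8.20 with ALKBH3 shRNA, and KRT17, a stress keratin, lay between -8.76 and -6.22. None of these 12 readings was well above background, so that no difference is given for them. In RNA from whole cultures, fewer cells making a keratin and less of its RNA per cell cannot be told apart.

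KRT80, which lies next to KRT7 on chromosome 12, was also higher on the ALKBH3 arrays. It read -0.38 (control) and 0.11 (ALKBH3) at 48 h, then -0.13 and 0.73 at 96 h. Both ALKBH3 arrays lay above both control arrays, with a wider gap at 96 h (0.86) than at 48 h (0.49). The overall log2 difference was 0.68 ± 0.25 (SE), 1.60-fold, with an adjusted p of 0.637 in limma and 0.0647 with the time point as a block. Without the 96 h ALKBH3 array the difference was 0.37, and without the 48 h ALKBH3 array it was 0.99.

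**Figure D2:**
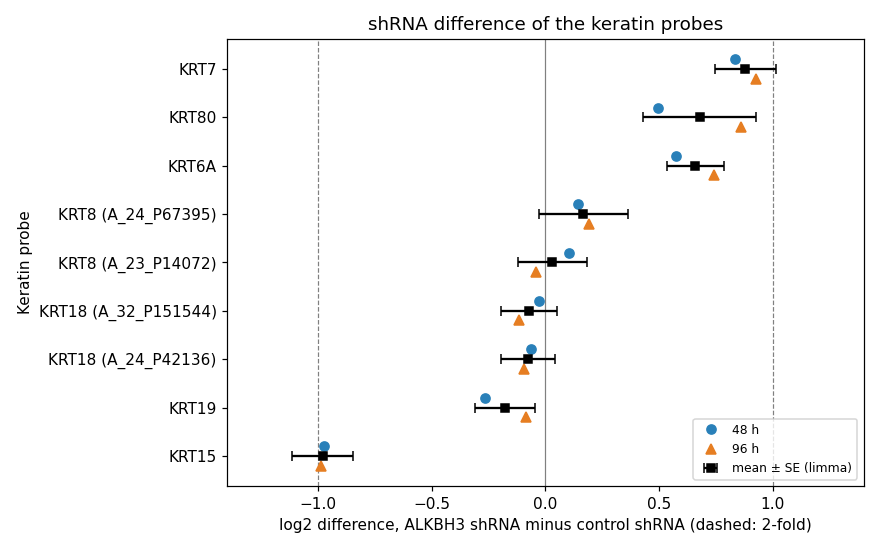
Log2 difference of each tested keratin probe between ALKBH3 and control shRNA at 48 h (circles) and 96 h (triangles), with the limma estimate and its SE (squares and bars, n = 2 arrays per shRNA) and dashed lines at 2-fold. KRT7, KRT80 and KRT6A lie to the right and KRT15 to the left at both time points, and no estimate passes either dashed line.

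By the cutoffs of the study (an unadjusted p below 0.05 together with at least a 2-fold change), 0 of the 9 keratin probes were called higher (0.886% of all 23260 probes tested) and 0 lower (0.232% of all). At 1.5-fold, 3 were called higher (KRT7, KRT80 and KRT6A; 2.56% of all) and 1 lower (KRT15; 1.26% of all). Because KRT6A entered the test only through the arrays where it was higher, it supports neither this count nor that of the block fit. An unadjusted limma p below 0.05 was met by 4 of the 9, against 7.66% of all probes. After Benjamini-Hochberg adjustment over all probes in limma without a covariate, 0 of the 9 passed 0.05, and 0 of all. With the time point as a block, 2 keratin probes passed the adjusted p as higher (KRT7 and KRT6A; 1.96% of all) and 1 as lower (KRT15; 0.972% of all).

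The contrast of luminal with basal or stress keratins gave little difference in the middle and a wide spread within each class. The median log2 difference was -0.02 over the 6 luminal probes, of which 3 were above 0 and 3 below, and -0.16 over the 2 tested basal or stress probes, of which 1 was above 0 and 1 below. The median over all probes tested was 0.0028, with quartiles of -0.12 and 0.13. The luminal median was thus 0.14 above the basal or stress median, by 0.24 at 48 h and by 0.06 at 96 h. The basal or stress value rests on KRT15 and KRT6A alone, which lay at opposite ends. With KRT80 counted in that class its median was 0.66 and the luminal median 0.68 below it. That median is the value of KRT6A, which entered the test only through the ALKBH3 arrays, where it was higher, so it supports no contrast of the classes. When only probes well above background on all 4 arrays were kept, KRT15 alone remained and the luminal median was 0.96 above it.

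Sorting the keratins by filament type rather than by layer gave a split by direction, a grouping made after the values had been seen. Besides the 10 members, the arrays had probes for 43 other keratin genes, 20 of them tested. Of the 15 type II keratin genes tested, 13 were above 0 and 2 below (KRT6B and KRT3), and the median log2 difference was 0.50 (48 h, 0.28 and 96 h, 0.54). Of the 12 type I keratin genes tested, 4 were above 0 and 8 below, and the median was -0.15 (48 h, -0.15 and 96 h, -0.12). Of all probes tested, 50.6% were above 0. At 1.5-fold, 5 type II genes were called higher (KRT7, KRT6A, KRT80, KRT75 and KRT4) and 0 lower, while 4 type I genes were called lower (KRT15, KRT37, KRT13 and KRT32) and 0 higher, against 2.56% of all probes called higher and 1.26% lower. With the time point as a block, 5 type II genes passed the adjusted p in limma as higher (KRT7, KRT6A, KRT75, KRT4 and KRT78) and 3 type I genes as lower (KRT15, KRT37 and KRT13), against 1.96% and 0.972% of all probes. Among genes well above background on all 4 arrays, which leaves out KRT6A and KRT6B, 12 of 13 type II genes were above 0, 4 were called higher at 1.5-fold and 4 passed the adjusted p of the block fit as higher.

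Type II genes lie in the chromosome 12 cluster, and type I genes, except KRT18, in the chromosome 17 cluster. Of the genes that are not keratins, 48.8% of 727 tested on chromosome 12 and 49.5% of 858 on chromosome 17 were above 0. These shares cover whole chromosomes, and genes near the clusters were not looked at apart. Whether position has a part in the split was not tested. The size of the type II shift depended on the processing. Its median was 0.19 with normexp background correction, 0.27 in the authors' normalised values and 0.17 without the 96 h ALKBH3 array.

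**Figure D3:**
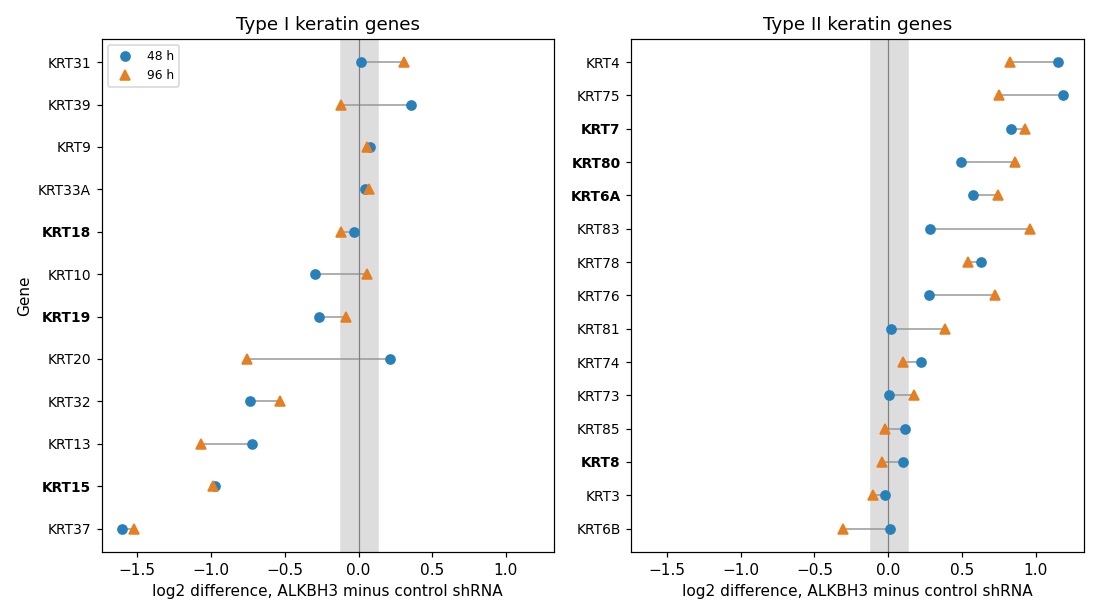
Log2 difference between ALKBH3 and control shRNA at 48 h (circles) and 96 h (triangles) for the 12 type I and 15 type II keratin genes tested, 1 probe per gene (bold, the members; grey band, the interquartile range of all probes tested, from -0.12 to 0.13). The largest values are below 0 among type I genes and above 0 among type II genes, and KRT8, KRT18 and KRT19 lie near the band.

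Of the 20 other keratin genes tested, 0 were called higher at 2-fold (0.886% of all probes tested) and 1 lower (0.232% of all). KRT37, a type I hair keratin, read -1.35 (control) and -2.95 (ALKBH3) at 48 h, then -1.93 and -3.45 at 96 h. The groups did not overlap, and the log2 difference was -1.56 ± 0.28 (SE), 2.95-fold lower (adjusted p 0.386 in limma; 0.0289 with the time point as a block). KRT13, the type I keratin of stratified mucosa such as the oesophagus, read -2.96 and -3.68, then -2.98 and -4.05, a difference of -0.90 ± 0.17 (block adjusted p 0.0421, limma). KRT4, the type II partner of KRT13, differed in the opposite direction. It read -5.52 and -4.37 at 48 h and -4.92 and -4.09 at 96 h, a difference of 0.99 ± 0.25 (block adjusted p 0.0376, limma), and of 0.54 with normexp background correction. KRT75, a type II keratin of the hair follicle companion layer, read -2.28 and -1.09, then -2.25 and -1.5, a difference of 0.97 ± 0.18 (block adjusted p 0.0442, limma). KRT32 (-0.64), KRT78 (0.59) and KRT76 (0.50) were smaller, with normexp values of 0.34 for KRT78 and 0.14 for KRT76. These and KRT4 were named after their values had been seen.

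Genes for proteins that anchor keratin filaments were spread on both sides of 0. Of 16 tested genes of desmosomes, hemidesmosomes and other linkers, 7 were above 0 and 9 below, with a median of -0.01, and 0 passed 2-fold. DSP, the desmoplakin that ties keratin filaments to desmosomes, differed by 0.73 ± 0.18 (SE) and DSC2, a desmosomal cadherin, by -0.47 ± 0.14, with adjusted p of 0.451 and 0.538 in limma. DSC3 and the integrin ITGA6 were also lower, by 0.41 and 0.38 on the log2 scale, at an unadjusted limma p of 0.0216 and 0.0265, and DSC3 by 0.27 with normexp. Of 8 regulators of keratin filaments, 6 were above 0 with a median of 0.14. FLG, counted among those above 0, entered the test only through the ALKBH3 arrays and does not support this count. EPPK1, an epiplakin that bundles keratin filaments, was higher by 0.90 ± 0.14 (SE; adjusted p 0.362 in limma and 0.0427 with the time point as a block), and by 0.41 with normexp background correction. FAM83H differed by 0.26. Of 10 other intermediate filament genes, 5 were above 0 and 5 below, with a median of 0.01. PRPH differed by 0.53 and NEFL by -0.16.

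Of 13 transcription factors of epithelial cells tested, 3 were above 0 and 10 below, against 50.6% of all probes above 0. Their median of -0.09 lay within the quartiles of all probes tested (-0.12 and 0.13). The pair with the smallest p were TFAP2C (-0.33) and GATA3 (-0.39), and 0 of 13 passed an unadjusted limma p of 0.05, against 7.66% of all probes. Among genes of the cornified layer, 11 of 12 were above 0 with a median of 0.21, also with 0 past that p. SPRR1B, SPRR2A and FLG entered the test only through the ALKBH3 arrays, where they were higher, so they do not support this count. TGM1, a cross-linking transglutaminase, differed by 0.38 and SPRR1B, a cornified envelope precursor, by 0.70 ± 0.32 (SE), with normexp values of 0.23 and 0.21. KLK5, a serine protease of that layer, was the one gene to pass the adjusted p with the time point as a block (0.0442, limma), at 0.66 ± 0.66 without a block.

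Markers of prostate layers and of other cells are given because some moved with the shRNA, and their part in the keratin values was not tested. Of 5 prostate luminal markers tested, HOXB13 differed by -0.80 ± 0.23 (SE; block adjusted p 0.0354, limma), and the summed luminal signal, in units of the 75th percentile, was 55.1 to 72.4 with control and 32.2 to 44.3 with ALKBH3 shRNA. Of 6 basal markers tested, LAMB3, a laminin chain, was higher by 0.81 ± 0.12 (block adjusted p 0.0347, limma) and TRIM29 differed by 0.67 (0.09 with normexp), and the sum was 29.1 to 33.6 against 33.6 to 38.6. Of 5 fibroblast markers tested, LUM was called higher at 2-fold (log2 difference 1.98 ± 0.57, SE; well above background on 3 arrays), DCN differed by 0.65, COL1A1 by 0.71, COL3A1 by -0.43 and PDGFRA by -0.09, while COL1A2 and PDGFRB were not well above background on any array. With normexp LUM differed by 1.13 and DCN by 0.19. LUM and TRIM29 were not well above background on the 96 h control array. Both entered the test only through the ALKBH3 arrays, where they were higher, so neither supports a change of its list. The fibroblast sum was 0.507 to 0.788 with control and 0.847 to 1.15 with ALKBH3 shRNA. It includes LUM and so does not by itself show a change of the list. Of 2 neuroendocrine markers tested, SYP had a measured log2 difference of -1.12 (adjusted p 0.445, limma) and ENO2 of -0.08. SYP was not well above background on either ALKBH3 array, so the size of its difference is not known, and with normexp it was -0.42. It entered the test only through the control arrays, where it was higher, so it does not support a change of its list. The neuroendocrine sums were 1.74 to 2.32 with control and 1.77 to 2.0 with ALKBH3 shRNA. CHGA and CHGB were not well above background on any array. Of 6 leukocyte markers, CD3E differed by 0.23 and PTPRC by -0.09, with sums of 0.657 to 0.842 and 0.658 to 0.950.

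Between 48 h and 96 h of selection the keratins differed little. The log2 differences of 96 h minus 48 h were 0.15 for KRT7, -0.15 for KRT15 and 0.07 for KRT6A, and their signs turned when single arrays were left out. At 2-fold, 0 of the 9 probes were called between time points (0.671% of all), and 1 had an unadjusted limma p below 0.05 (17.8% of all): the second KRT8 probe, lower by 0.34 at 96 h, with an adjusted p of 0.268. The first KRT8 probe was lower by 0.20 (adjusted p 0.366, limma). KRT80 was higher at 96 h by 0.43, with an adjusted p of 0.552 without a block and 0.0859 with the shRNA as a block. No keratin probe passed the adjusted p in either limma fit, which leaves 0 of 9 called, although 2319 of all probes passed with the shRNA as a block. In that fit 2 of the 9 had an unadjusted p below 0.05, against 7653 of all 23260 probes tested, a larger share.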

How the data were processed

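The authors deposited, array by array, spot intensities from Agilent Feature Extraction 10.7.3.1 (file headers), background-subtracted on that array alone. They also deposited a table of log2 values normalised between arrays with limma, the method within limma not being given in the sources used here. Its column medians (7.53, 7.52, 7.53 and 7.54) and its correlation with the scanner values (Pearson r 0.996 to 0.997 over probes) show a log2 scale without gene centring, and it served as an alternative. The files hold no gene symbols: 24910 of 34127 probes were named through their accession and the RefSeq gene table (GRCh38.p14), and 9217 were unnamed.

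Flagged spots (180 to 379 per array) were removed, log2 intensities were centred on the 75th percentile of the array, and spots of a probe were averaged. Probes well above background (at least 0.5 of their spots) on both arrays of one shRNA or the other were fitted with lmFit and eBayes (limma 3.58.1 in R 4.3.3), 2 arrays against 2, with Benjamini-Hochberg adjustment over all 23260 probes. The number of arrays limits the precision. The time point, from the labels, pairs the arrays of the 2 shRNAs, and deviations of arrays with the same time point correlated (r = 0.66 over probes), and it was used as a block in an alternative fit. Other alternatives changed background correction, normalisation, centring, filters, the test, the cutoff and the arrays included. The scripts were tested on simulated data.

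The members and lists were chosen with earlier results of these data known. Named were all member probes, other keratins past the cutoffs or the 3 with the smallest p, from each list the genes past the cutoffs and the 2 with the smallest p, and ALKBH3; further genes are those counted at an unadjusted or block adjusted p below 0.05. A gene with several probes was represented in lists by its tested probe of highest mean signal. Some genes that this rule or the lists hold are not reported here.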

Additional observations from a re-analysis of the deposited data

Results flagged for a closer look

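The first KRT8 probe (A_23_P14072) differed in opposite directions at the time points, by 0.10 at 48 h and by -0.042 at 96 h, with 1 array per shRNA at each. ENO2, a neuroendocrine marker, did so as well, with 0.035 at 48 h and -0.20 at 96 h. Neither difference between the time points was tested.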

How the results depend on the processing

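The shRNA differences of KRT7, KRT15, KRT80, KRT18, KRT19 and KRT6A kept their direction in all 10 alternatives that could move them (other background corrections and scalings, and single arrays left out). The alternative with the time point as a replicate block moved the keratin probes past the adjusted p from 0 to 3 and those of all probes from 0 to 683 (for time, 0 to 2319). Keratin probes called lower went from 0 to 1 with median centring, with no filter on dim probes (KRT14, below background) and at 1.5-fold, which also called 3 higher. Over all probes, calls ranged from 60 (the methods' t-test) to 595 (1.5-fold) higher and from 25 to 293 lower. The methods' t-test called 0 after adjustment. The split of all calls was 206 higher and 54 lower, against 164 and 68 with quantile normalization and 118 and 42 in the authors' values. The basal or stress median was -0.37 with normexp, -0.35 with normexp and quantile normalization, -0.23 with quantile normalization, -0.28 in the authors' values, -0.98 with probes above background on all 4 arrays and 0.66 with KRT80 (the KRT6A value). The luminal minus basal or stress difference was 0.33, 0.31, and, for the last pair, 0.96 and -0.68. The type II median was 0.19 with normexp, 0.20 with normexp and quantile normalization and 0.27 in the authors' values, and the type I median -0.11 with quantile normalization and -0.18 with median centring. With single arrays left out, the type I median ranged from -0.31 to -0.084, the type II median from 0.17 to 0.51 and the probes called lower from 0 to 1.

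SYP, past the cutoffs by its measured -1.12, was within them with normexp (-0.42), normexp and quantile normalization (-0.39) and the authors' values (-0.75). Signs turned for small differences. With normexp, normexp and quantile normalization and the authors' values, the second KRT8 probe gave -0.00062, -0.0033 and -0.0062 and CD3E -0.020, -0.015 and -0.024. With single arrays left out, the first KRT8 probe ranged from -0.11 to 0.17, the second from -0.017 to 0.35, ENO2 from -0.29 to 0.12, PTPRC from -0.19 to 0.0026 and KLK5 from -0.078 to 1.39. For time, KRT6A gave -0.095 with quantile normalization, and with single arrays left out KRT6A ranged from -0.30 to 0.44, KRT7 from -0.31 to 0.61, KRT15 from -0.64 to 0.35 and KRT19 from -0.24 to 0.033. The causes were not tested. With 2 arrays per shRNA, a lone array left by an omission was assumed to vary like the other pair, and signal near background limits KRT5, KRT14, KRT17 and KRT6A.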
